A study of Mus musculus with 6 samples.

Results

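Syndecans and glypicans are the main heparan sulfate proteoglycans of the cell surface. The 10 mouse genes Sdc1 to Sdc4 and Gpc1 to Gpc6 were read by 24 probe sets that carry a single gene symbol, out of 45037 probe sets and 18193 named genes in all. A further probe set that names both Gpc2 and Gal3st4 was left out. The family was chosen because a probe set of Sdc2 has the smallest p of the whole knockout against control comparison (limma unadjusted p = 6.56e-06, adjusted p = 0.295 over all 45037 probe sets), so differences between the groups are given for these genes as descriptions and support no claim about them.

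E15.5 embryonic back skin was taken from mice of a C57BL6/129 mixed background and hybridised as biotin-labelled RNA to Affymetrix MOE430 2.0 arrays, on which each probe set is a group of short probes to 1 transcript. The 3 control samples were Fzd6 +/- and the 3 knockout samples Fzd6 -/-, so both groups carry at least 1 mutant allele of Fzd6 and neither is wild type. Fzd6 encodes a Frizzled receptor of planar cell polarity, the system that orients hairs along the body. Samples of a group are biological replicates by their titles. Nothing used here says whether a sample is 1 embryo, a pool or a littermate of another, so no error given here measures a spread between embryos or litters. SDs are the spread between these samples only. SEs are those of limma, which moderates the variance of each probe set toward that of all probe sets. Where samples scatter little, the SE is thus larger than their own spread would give. Values are RMA expression values on the log2 scale. The array medians lay between 5.99 and 6.03, and the number of arrays limits the precision of each difference.

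As background, a syndecan spans the membrane and has a short cytoplasmic tail that binds PDZ-domain proteins, while a glypican is held to the outer face of the membrane by a lipid (GPI) anchor. Heparan sulfate chains on both kinds of core protein bind Wnt, Hedgehog, FGF and BMP ligands and help to present them to receptors or to hold them near the cell. In vertebrate embryos Gpc4 (the zebrafish knypek gene) and Sdc4 act together with the planar cell polarity branch of Wnt signalling. In skin Sdc1 is best known as the syndecan of keratinocytes, Sdc2 as a syndecan of mesenchymal cells and Sdc4 as a syndecan of focal adhesions.

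Gpc3 and Gpc4 lie side by side on the X chromosome with 0 annotated genes starting between them, and Gpc5 and Gpc6 are likewise neighbours on chromosome 14, with 0 protein-coding genes between. Promoter sequence from RefSeq (build GRCm38.p6) was found for 7 of the 10 genes and not for Sdc2, Gpc1 and Gpc6. The promoters of the X-linked pair are shown because their transcripts are described side by side below and give different patterns over the arrays. Each is the 250 bases before the gene start, on the minus strand, read 5′ to 3′. Capitals mark the GC box GGGCGG or its reverse complement CCGCCC, the core letters of a common promoter element.
Gpc3, chrX:52613975-52614224: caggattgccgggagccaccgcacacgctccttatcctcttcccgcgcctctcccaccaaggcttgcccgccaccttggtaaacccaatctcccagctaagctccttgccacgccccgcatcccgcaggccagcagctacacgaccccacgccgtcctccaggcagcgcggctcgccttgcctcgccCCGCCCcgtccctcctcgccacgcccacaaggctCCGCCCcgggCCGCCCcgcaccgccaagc
Gpc4, chrX:52164924-52165173: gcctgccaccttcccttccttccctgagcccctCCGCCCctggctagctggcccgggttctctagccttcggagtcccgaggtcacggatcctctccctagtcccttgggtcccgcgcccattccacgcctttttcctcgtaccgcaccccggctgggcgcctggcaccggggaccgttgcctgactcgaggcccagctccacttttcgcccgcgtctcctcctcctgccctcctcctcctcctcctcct
The Gpc3 window holds the GC box 3 times and the Gpc4 window once, and neither holds TATAAA or its reverse complement TTTATA. Of all 32851 promoter windows of this length, 32.7% hold a GC box and 12.4% a TATA box on either strand. The 2 motifs share no letters, and a match is a run of letters, not a shown site of binding.

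The tissue label was checked against marker genes. Krt5 and Krt14, keratins of the basal epidermis, lay between 12.2 and 13.4 in every array, Krt10 of the spinous layer between 13.9 and 14.3, and the dermal collagen gene Col1a1 between 9.94 and 12.1, all well above the array medians. Knockout 1 and control 1 had the least of the dermal fibroblast list (8 of 8 markers measured) (−0.54 and −0.26 from the mean of the 6 arrays), while the other 4 lay between 0.14 and 0.28. The endothelial list (8 of 8 measured) was also lowest in them, at −0.94 and −0.39 against 0.27 to 0.36. Eif2s3y, Kdm5d and Uty, which are Y-linked, were near the array floor (2.53 to 3.65) in control 2 and knockout 3 and lay between 6.71 and 9.65 elsewhere. Fzd6 itself was read by 3 probe sets. Its brightest was at 9.50, 9.51 and 9.11 in controls 1 to 3 and at 9.07, 9.01 and 8.71 in knockouts 1 to 3. Its dimmest was at 6.22, 6.09 and 6.09 against 5.49, 5.53 and 5.36, so in both all knockouts lay below all controls, while the third differed by −0.0097. Nothing used here places these probes inside or outside the deletion, so they do not check the labels fully.

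Sdc2, on chromosome 15, was read by 4 probe sets, all with a lower mean in the knockout but by very different amounts. In the lead probe set, 1448545_at, the controls read 7.86, 8.11 and 7.84 and the knockouts 6.81, 6.88 and 6.87. The knockouts lay close together, and every one was far below every control. The group means were 7.93 ± 0.15 and 6.85 ± 0.038 (SD, n = 3), a difference of −1.08 with an SE of 0.097, or 2.11-fold lower. This value chose the family and carries no test here. Its limma adjusted p over all 45037 probe sets was 0.295, and with the replicate number of the labels as a block it was 0.0453.

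The other Sdc2 probe sets did not follow the lead probe set array by array. In 1417012_at the controls read 7.12, 7.01 and 6.87 and the knockouts 6.37, 6.57 and 6.32, a difference of −0.58 (SE 0.11). The groups did not overlap there either, though they stood closer together. In 1417011_at the controls read 7.54, 7.66 and 7.43 and the knockouts 6.93, 7.53 and 7.30, a difference of −0.29 (SE 0.15). Knockout 2 sat among the controls and knockout 1 was set apart below all others. In the dim 1431474_at, far below the array medians, the controls read 3.69, 4.09 and 3.86 and the knockouts 3.53, 3.83 and 3.86, which overlap (−0.14, SE 0.14).

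**Figure D1:**
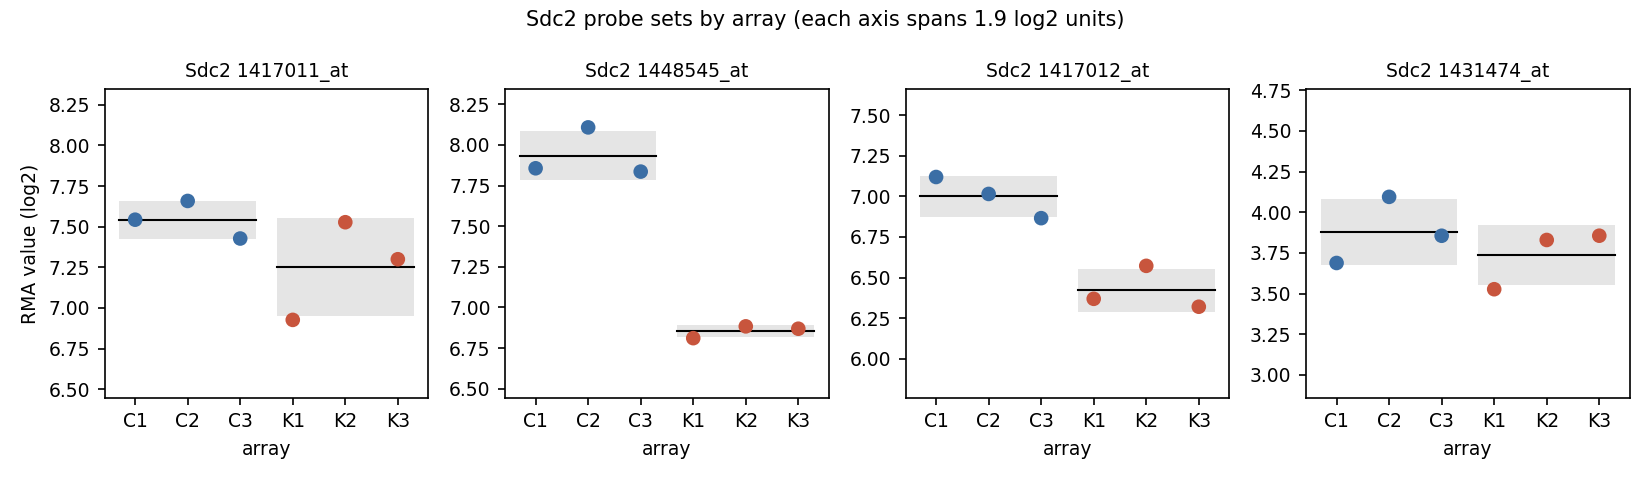
RMA values (log2, vertical axis) of the 4 Sdc2 probe sets in control arrays C1 to C3 (blue) and knockout arrays K1 to K3 (red). Lines are group means and grey bands 1 SD (n = 3). In 1448545_at the knockouts sit at 6.81 to 6.88 below controls at 7.84 to 8.11, and in 1417011_at and 1431474_at the groups overlap.

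Setting the probe sets of Sdc2 against each other within each array removes what the whole array shares. The lead probe set minus 1417011_at was 0.31, 0.45 and 0.41 in the controls and −0.12, −0.64 and −0.43 in the knockouts. Minus 1417012_at it was 0.74, 1.09 and 0.97 in the controls and 0.44, 0.31 and 0.55 in the knockouts. The groups were apart in both, by −0.79 and −0.50 on the log2 scale. Since the lead probe set was picked for its small p, its excess over the others is a description and shows nothing further about the gene. Which stretches of the transcript these probe sets read was not analysed here.

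Marker lists of other cells in the skin are given here beside the lead difference. The dermal fibroblast list ran from −0.26 to 0.21 in the controls and from −0.54 to 0.28 in the knockouts, and the endothelial list from −0.39 to 0.34 and from −0.94 to 0.36, and the pericyte and smooth muscle list (7 of 7 measured) from −0.27 to 0.20 and from −0.34 to 0.23. The groups overlapped in these 3 lists. With the fibroblast list as a covariate the Sdc2 difference was −1.07 (limma adjusted p = 0.0753), and without knockout 1 it was −1.06. In bulk skin, fewer cells of a type and less RNA per cell cannot be told apart. Of the 13 cell type lists scored, the groups were apart in 2, suprabasal epidermis (8 of 8 measured, −0.32 to −0.15 in controls, 0.030 to 0.61 in knockouts) and mast cells (6 of 6 measured, −0.54 to 0.083 and 0.26 to 0.41). Among single probe sets the groups were apart in 11.6% of all 45037. No such share was computed for lists, so nothing is read from this count. The lead probe set was picked for its small p, and of the cell type lists only the fibroblast list was used as a covariate. The part of cell makeup in the Sdc2 result was therefore not tested by these fits.

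Among 19736 other single-gene probe sets above the median level, likeness to the lead Sdc2 probe set was measured over the 6 arrays. The 5 nearest, by the root-mean-square difference of centred values over the 6 arrays, were those of the embryonic globin gene Hbb-y (0.26), the homeobox gene Zfhx4 (0.27), Zfp934 (0.28), Glipr2 (0.28) and Has2, which makes hyaluronan (0.29). The lead probe set's own root-mean-square deviation was 0.55, so even the nearest differed from it by a good part of its own movement. In Has2 the controls read 6.46, 6.40 and 6.66 and the knockouts 5.94, 5.87 and 5.90, with the knockouts close together. As these 5 were picked for likeness to a probe set whose groups are apart, their own split is partly built in. When only deviations from each group mean were used, the nearest were Stxbp4, Trip12, Telo2, Parp6 and Rsrc1, at 0.014 to 0.020, where the lead probe set's own deviation was 0.090. These followed its small movements within the groups more closely. The brightest Sdc2 probe set, 1417011_at, had other neighbours: 4930402H24Rik (0.030), Hykk (0.040), Wdr86 (0.043) and both probe sets of Zfp618 named by the rule (0.048 and 0.053). With 6 arrays and so many candidates such likeness is a description.

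Sdc2 and the targeted gene Fzd6 lie on the same chromosome, 15, with 38 protein-coding genes starting between them in the RefSeq gene table (GRCm38.p6). All kinds of gene counted, the table has 124 there, of which 35 were measured, some of them non-coding. None passed limma's adjusted threshold of 0.05 (3 had an unadjusted p under 0.05, against 5.07% of all genes), where 0% of all genes passed it. In 3 the groups did not overlap, against 11.3% of all 18193 genes read by their brightest probe set (6.99% higher, 4.31% lower). With any of their 77 probe sets counted, 9 of the 35 had groups apart. The like share over all genes was not computed, so nothing is read from that count. The peptidase gene Cpq, next to Sdc2 in this order, read 8.53, 8.54 and 8.62 in controls and 8.27, 8.43 and 8.30 in knockouts. All 3 knockouts lay below all controls. Tspyl5 differed by 0.15 (SE 0.077) and the transporter-like gene Nipal2 by 0.70 (SE 0.23), both with all knockouts above all controls. The differences of the 35 ran from −0.66 to 0.70. Read in the same way, by its brightest probe set, Sdc2 was at −0.29, inside that range.

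**Figure D2:**
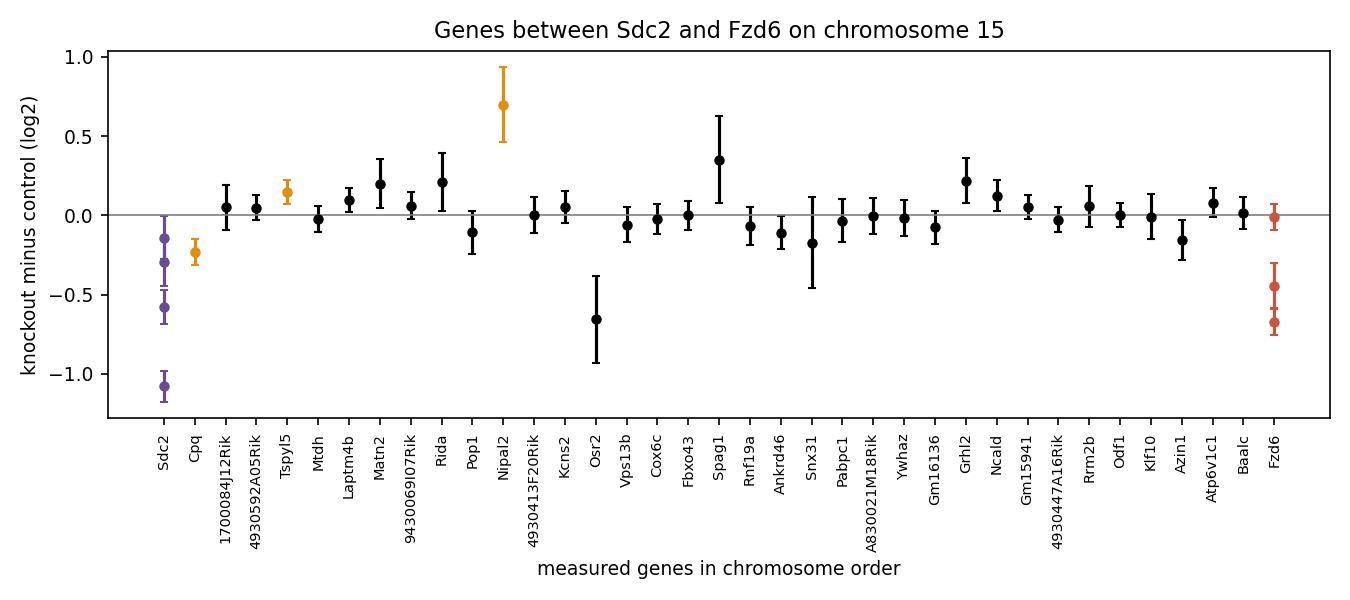
Knockout minus control (log2, with SE) for all Sdc2 probe sets (purple, left), the brightest probe set of each of the 35 measured genes between, in chromosome order, and all Fzd6 probe sets (red, right). Orange marks genes whose groups do not overlap. Differences between the 2 ends run from −0.66 to 0.70, the lead Sdc2 probe set is at −1.08 and the brightest one at −0.29.

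Over the whole family the differences were small outside Sdc2. Of the 24 probe sets, 19 had a lower and 5 a higher mean in the knockout, and their median difference was −0.10, against 0.0018 over all probe sets and −0.029 over those above the median level. A lower mean was found in 22241 of all 45037 probe sets and in 13330 of the 22518 above the median level, where 18 of the 24 lay. Without knockout 1 the family median was −0.027. By limma 0 of the 24 passed an adjusted p of 0.05 (0% of all probe sets) and 3 had an unadjusted p under 0.05 (5.21% of all). With the replicate block 1 passed, the lead Sdc2 probe set that chose the family (0.00666% of all). The groups did not overlap in 4 of the 24: Sdc2 (2 probe sets) and Gpc3 lower, and 1 probe set of Sdc3 higher. Over all 45037 probe sets this held for 11.6% (5.0% lower, 6.55% higher), and since the family was chosen from this comparison nothing is read from its share. The count was 8, 5 and 5 without controls 1, 2 and 3, and 7, 6 and 7 without knockouts 1, 2 and 3. It was 11 without both number 1 arrays. Fewer arrays separate more easily, and the share over all probe sets was not computed with arrays left out, so nothing is read from these counts. Within arrays of the same replicate number, 10 of the 24 had the same sign in all 3 pairs, 9 of them lower, where 35.7% of all probe sets had 1 sign and 17.9% were lower in all 3.

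**Figure D3:**
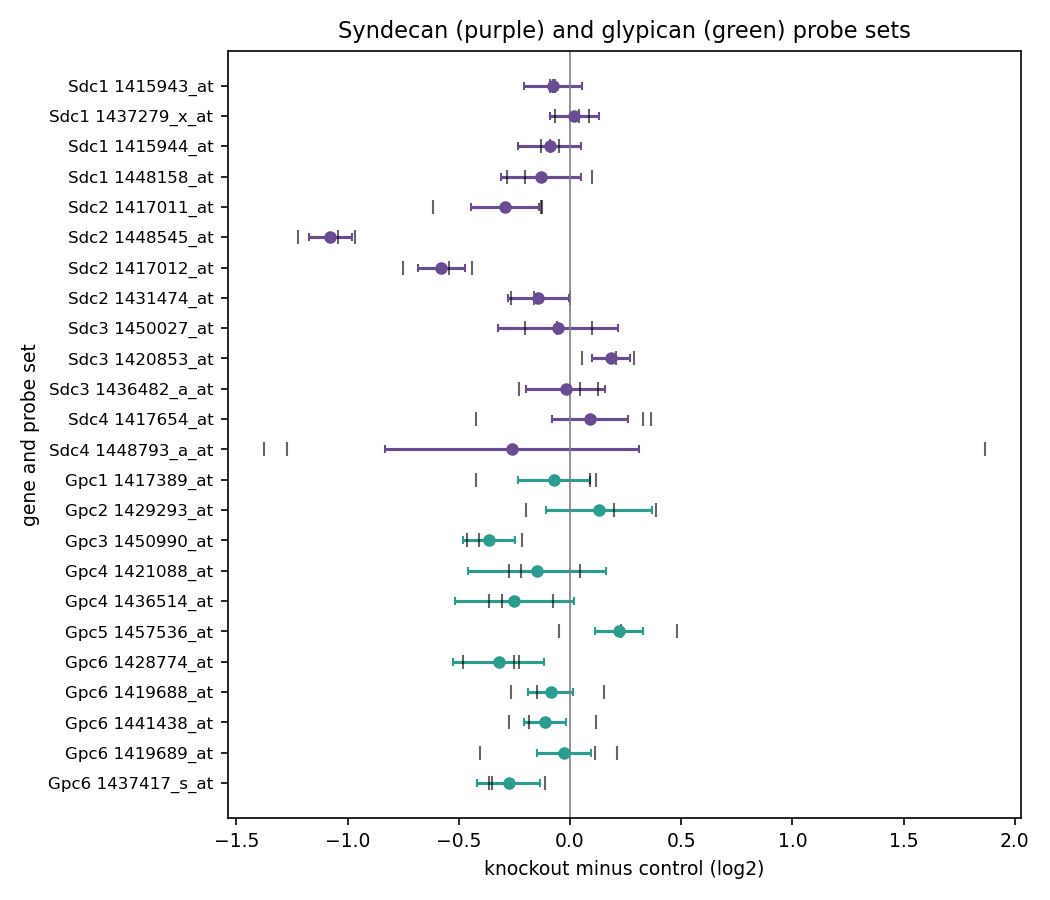
Knockout minus control (log2, horizontal axis) for the 24 probe sets, with the limma SE as bars and the difference of each same-numbered pair of arrays as a tick. Sdc2 1448545_at stands at −1.08 with its 3 ticks close together, while the ticks of Sdc4 1448793_a_at run from −1.38 to 1.86.

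Sdc1, the keratinocyte syndecan, was read by 4 probe sets whose differences lay between −0.13 and 0.019. The brightest, 1415943_at, read 11.56, 11.43 and 11.20 in controls 1 to 3 and 11.49, 11.34 and 11.12 in knockouts 1 to 3. Its group difference was −0.077 (SE 0.13), with −0.068, −0.090 and −0.075 in the same-numbered pairs and an SE of 0.072 with the replicate block. Within each genotype the array numbered 3 was the lowest in all 4 probe sets. The basal epidermis list (8 of 8 measured) was lowest in the same arrays, with −0.41 for control 3 and −0.23 for knockout 3 and between 0.064 and 0.25 elsewhere, and the part of these markers in the Sdc1 values was not tested.

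Sdc3, a syndecan best known from nerve cells, gave probe sets that disagreed. In 1420853_at the controls were almost identical, at 7.82, 7.81 and 7.80, and the knockouts read 8.02, 7.87 and 8.09. All 3 knockouts were thus higher, by 0.18 (SE 0.085), in the only member probe set with groups apart in that direction. In the brighter 1450027_at the controls read 7.89, 8.63 and 8.39 and the knockouts 7.69, 8.57 and 8.49, with a difference of −0.054 (SE 0.27). There the arrays numbered 1 were the low ones in both genotypes. The third, 1436482_a_at, had the same low arrays and a difference of −0.019.

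Sdc4, the focal adhesion syndecan, had the widest scatter of the family, in 1 of its 2 probe sets. In 1448793_a_at the controls read 8.78, 8.70 and 7.54 and the knockouts 7.41, 7.43 and 9.40. Controls 1 and 2 and knockout 3 formed a high set and the other 3 arrays a tight low set, with more than 1 log2 unit between, so the split ran across the genotypes. In the other probe set, 1417654_at, the controls read 9.45, 9.63 and 9.74 and the knockouts 9.82, 9.96 and 9.31. The order was turned about, the 3 arrays of the high set being the 3 lowest here, and the whole range was 0.64 against 2.00. The differences between genotypes were −0.26 (SE 0.57) and 0.089 (SE 0.17).

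The 5 probe sets nearest in profile to Sdc4 1448793_a_at, examined after its values were seen, were 2 of the fatty acid binding protein gene Fabp4 (0.45 and 0.46), Myl2 (0.49) and Myl3 (0.55), which encode light chains of muscle myosin, and Sys1 (0.52). The probe set's own deviation was 0.79. Sys1, a gene of Golgi transport, is the next gene to Sdc4 on chromosome 2, with 0 annotated genes starting between. Its probe set 1450057_at read 8.11, 7.96 and 7.67 in the controls and 7.53, 7.79 and 8.41 in the knockouts, so the same 3 arrays were the highest. The other 4 Sys1 probe sets spanned at most 0.25 over the 6 arrays. Among 25 probe sets of the 10 measured genes nearest to Sdc4, 5 on each side, the same 3 arrays were highest in 3 (2 of Sys1 and 1 of Pigt), where 2.58% of all probe sets had this order. The Y-linked genes, given above, were low in control 2 and knockout 3 and high in control 1. The skeletal muscle list read −0.34, 0.44 and −0.016 in controls and 0.074, −0.53 and 0.37 in knockouts. Control 2 and knockout 3 were its highest arrays, while control 1 was low. The adipocyte list (4 of 5 measured) had those 3 arrays highest, at 1.29, −0.22 and −0.24 in controls and −0.42, −0.26 and −0.15 in knockouts, though control 1 alone stood clearly above the rest. Fabp4, a nearest profile above, belongs to this list, so the likeness is partly built in. The part of these genes and lists in the Sdc4 values was not tested.

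**Figure D4:**
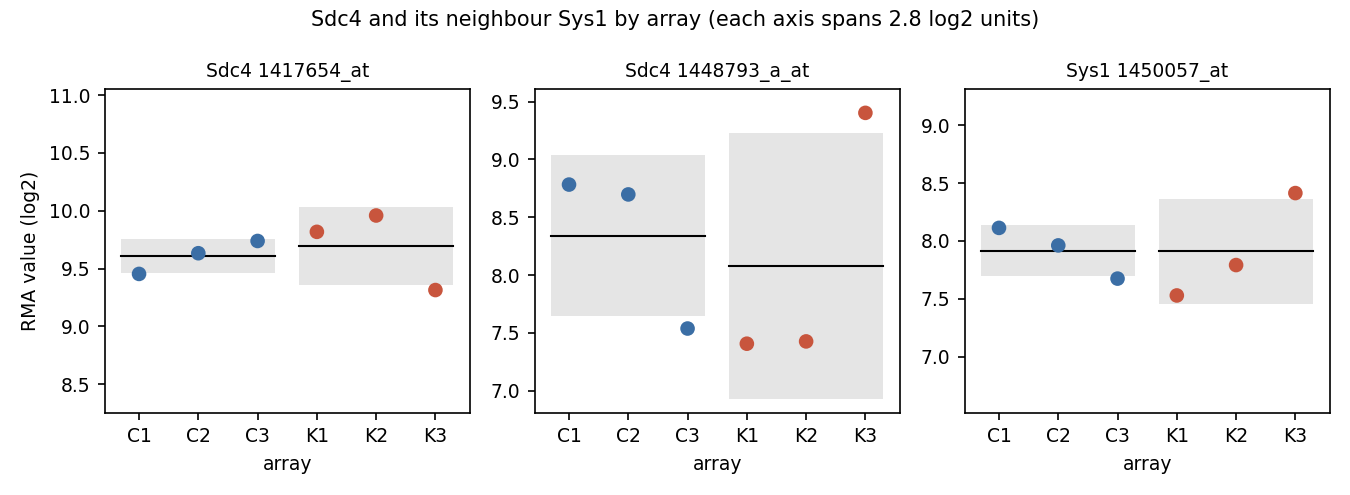
RMA values (log2, vertical axis) of both Sdc4 probe sets and of Sys1 1450057_at in control arrays C1 to C3 (blue) and knockout arrays K1 to K3 (red), with group means (lines) and 1 SD (grey bands, n = 3). In Sdc4 1448793_a_at arrays C1, C2 and K3 read 8.70 to 9.40 and the other 3 read 7.41 to 7.54.

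Among the glypicans, Gpc3 was the gene whose genotype groups did not overlap. Gpc3 restrains Hedgehog signalling and growth, and its loss causes an overgrowth syndrome in humans. The controls read 10.41, 10.69 and 10.33 and the knockouts 10.004, 10.23 and 10.11. Every knockout lay below every control, with means of 10.5 ± 0.19 and 10.1 ± 0.11 (SD, n = 3) and a difference of −0.36 (SE 0.12), or 1.29-fold lower. It was lower in each same-numbered pair, at −0.41, −0.46 and −0.22. Gpc3 is X-linked, and the arrays low in Y-linked genes, control 2 and knockout 3, held its highest control value and a middle knockout value.

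Gpc4, its neighbour on the X chromosome and the zebrafish knypek gene's counterpart, showed another pattern. In 1421088_at the controls read 9.09, 10.04 and 9.74 and the knockouts 8.87, 9.77 and 9.79. In 1436514_at they read 7.32, 8.10 and 7.82 and then 6.96, 7.79 and 7.74. Both probe sets were lowest in knockout 1, next lowest in control 1 and highest in control 2. Their group differences were −0.15 (SE 0.31) and −0.25 (SE 0.27). Within same-numbered pairs 1436514_at was lower in all 3 (−0.36, −0.31 and −0.078), and with the replicate block its SE was 0.085. In 1421088_at the pairs differed by −0.22, −0.27 and 0.046, and the blocked SE was 0.089. The same 2 arrays were lowest in the fibroblast and endothelial lists.

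Gpc6, a relative of Gpc4, was read by 5 probe sets with differences between −0.32 and −0.026, all overlapping. Its brightest, 1428774_at, read 6.90, 7.39 and 7.22 in controls and 6.42, 7.16 and 6.97 in knockouts. Knockout 1 was lowest here as well, and each knockout lay below the control of its number, by −0.48, −0.23 and −0.25. Knockout 1 was also lowest in the other 4, but control 1 was the highest control in 2 of these.

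The remaining glypicans were each read by 1 probe set. Gpc1 read 8.72, 9.26 and 9.07 in controls and 8.81, 8.84 and 9.19 in knockouts, a difference of −0.073 (SE 0.16). Gpc2, known from developing neurons, read 4.52, 5.32 and 5.04 and then 4.72, 5.12 and 5.43, a difference of 0.13 (SE 0.24). The Gpc1 knockouts lay within the range of the controls, while in Gpc2 knockout 3 was above and control 1 below all arrays of the other group. Both genes were lowest in the number 1 arrays of each group. Gpc5 read 3.36, 3.28 and 3.13 in controls and 3.31, 3.51 and 3.61 in knockouts, near the floor of the arrays, where a difference of 0.22 (SE 0.11) says little.

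Within both genotypes the array numbered 1 was the lowest in 9 of the 24 probe sets, a pattern looked for after the values were seen. These were both of Gpc4, 2 of Sdc3, 2 of Gpc6 and those of Gpc1, Gpc2 and the dim Sdc2 probe set. Over all probe sets 21.3% had this order, and 27.2% of those above the median level. The low fibroblast and endothelial lists of the same arrays are given above, and their part in these values was not tested.

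**Figure D5:**
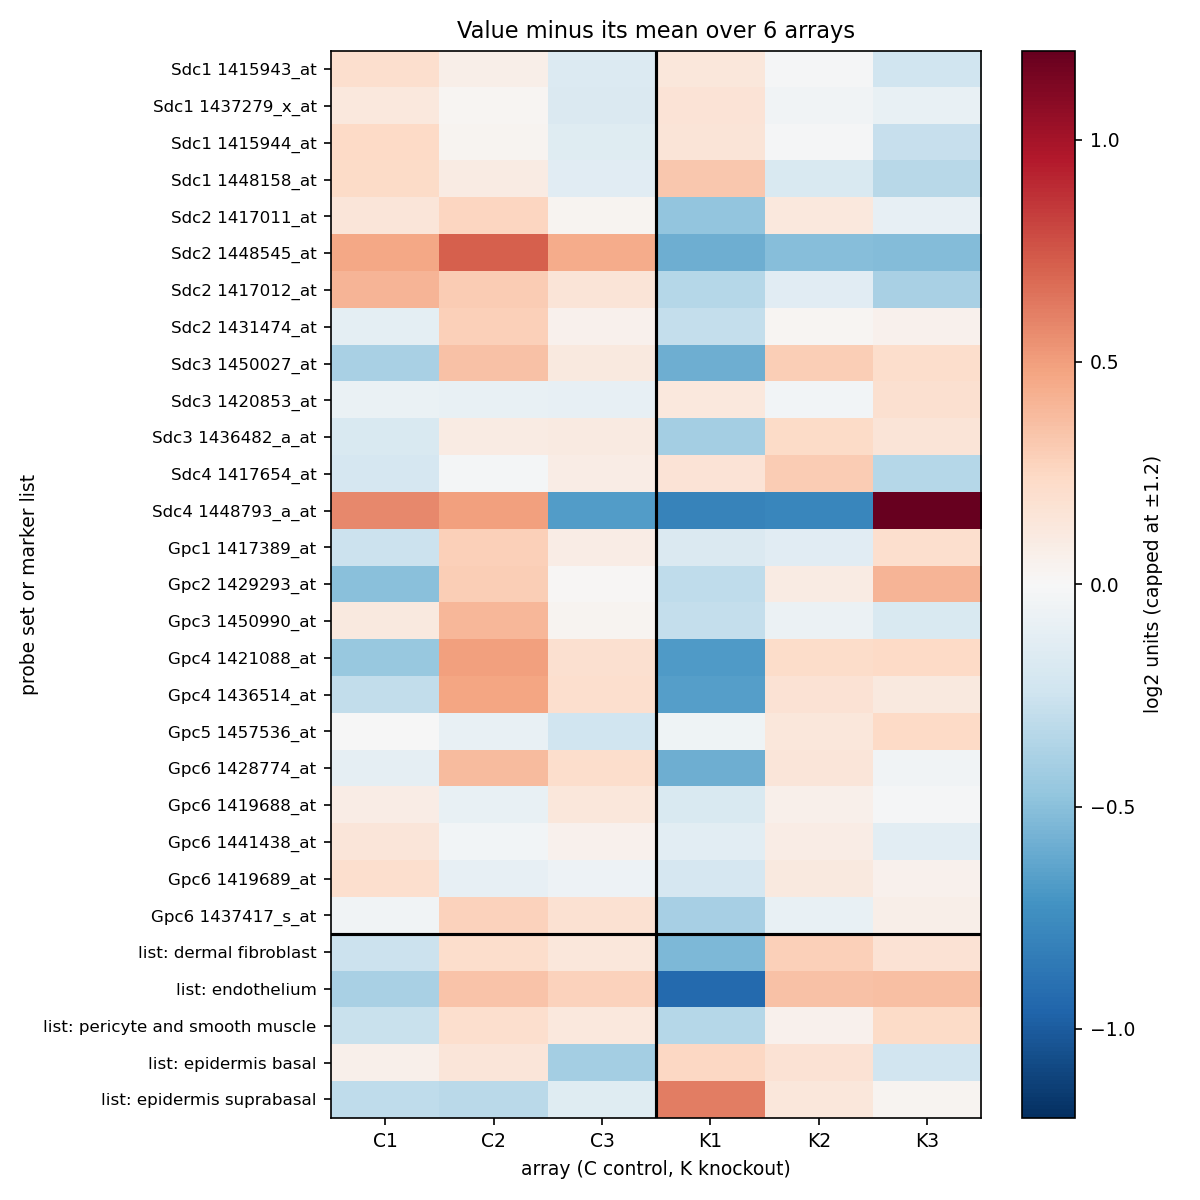
Each cell is a value minus its mean over the 6 arrays (log2, colour capped at 1.2 in size) for the 24 probe sets (above the line) and for the mean of 5 marker lists (below it), with controls left and knockouts right. Both Gpc4 probe sets have their lowest value in K1, as have the fibroblast (−0.54) and endothelial (−0.94) lists, while Sdc2 1448545_at splits by genotype.

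The rest of the heparan sulfate pathway was examined in 5 lists, of which 66 genes were measured. None passed limma's adjusted p of 0.05 over all probe sets (0 higher, 0 lower), and 4 had an unadjusted p under 0.05, where 5.07% of all genes did. The groups did not overlap in 8 of the 66, against 11.3% of all genes. The median difference over the 66 was −0.016, against 0.0070 over all genes.

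Chain assembly, the making of the sugar backbone, had 15 of 16 genes measured, 13 with a lower and 2 with a higher mean and a median difference of −0.083. All 15 lay above the median level, where 13330 of 22518 probe sets had a lower mean and the median difference was −0.029. Ugdh, which makes the UDP-glucuronate used for the chain, read 9.94, 9.88 and 9.84 in controls and 9.69, 9.67 and 9.60 in knockouts, a difference of −0.24 (SE 0.076, limma adjusted p = 0.909). Ext1, part of the chain polymerase, read 9.09, 8.89 and 8.89 and then 8.73, 8.82 and 8.79 (−0.18, SE 0.088), with −0.057 in its dimmer probe set. In Ugdh and in the brighter Ext1 probe set all knockouts lay below all controls, by little, while in the dimmer Ext1 probe set the groups overlapped. Ext1 is on chromosome 15, like Sdc2 and Fzd6, with 32 protein-coding genes between Fzd6 and it, and Has2 lies beyond, with 46. Extl2, a related transferase, differed by −0.17 and −0.12 in its 2 probe sets.

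Of the 20 genes that modify or trim the chain, 18 were measured, 10 with a higher and 8 with a lower mean. Hpse, the heparanase that cuts the chain, read 6.31, 6.41 and 6.72 in controls and 7.42, 6.91 and 6.94 in knockouts, a difference of 0.61 (SE 0.17, limma adjusted p = 0.909). Knockout 1 was the highest of all, as it was in the suprabasal list, which read −0.30, −0.32 and −0.15 in controls and 0.61, 0.14 and 0.030 in knockouts. Hs3st6, a 3-O-sulfotransferase, read 7.36, 7.40 and 7.35 and then 7.68, 7.73 and 7.63, a difference of 0.31 (SE 0.075) with little scatter in either group. Hs2st1, the 2-O-sulfotransferase, differed by −0.11 (SE 0.076) in its brightest probe set.

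Among 10 other proteoglycans that carry or can carry heparan sulfate, 5 had a higher and 5 a lower mean. Srgn, the serglycin of secretory granules, read 10.87, 10.12 and 11.32 in controls and 11.34, 11.31 and 11.34 in knockouts, a difference of 0.56 (SE 0.27). The mast cell list stood beside it at −0.51, −0.54 and 0.083 in controls and 0.30, 0.26 and 0.41 in knockouts, and controls 1 and 2 were the low arrays in both. Its part in the Srgn value was not tested. The 2 probe sets of Spock3 disagreed in sign (0.21 and −0.41). Both were dim, with means of 4.39 and 3.14 over the arrays, so these differences say little. The probe sets of the hyaluronan receptor gene Cd44 ran from −0.21 to 0.18.

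Binding partners of the syndecan tail were measured in 11 of 12 genes, 6 with a higher and 5 with a lower mean and groups apart in 0. The scaffold Sdcbp (syntenin) differed by −0.15 (SE 0.096), with −0.15 and 0.070 in dimmer probe sets. The Rac activator Tiam1 differed by 0.18 (SE 0.12), with −0.19 and 0.17 in dimmer probe sets. The membrane linker Ezr differed by 0.23 (SE 0.18), with 0.091 in its dimmer probe set. Of 12 genes of shedding and release, 5 had a higher and 7 a lower mean. Gpld1, a phospholipase that cuts GPI anchors, read 8.29, 8.41 and 8.33 in controls and 9.33, 8.67 and 8.50 in knockouts (0.49, SE 0.20), with knockout 1 far above the rest. The sheddase inhibitor Timp3 differed by −0.26 (SE 0.20) and the protease Mmp2 by −0.15 (SE 0.17).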

How the data were processed

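Total RNA of E15.5 mouse back skin was measured on 6 Affymetrix MOE430 2.0 arrays. The deposited values are log2 expression summaries that the authors made with RMA, per the submitters' processing notes, which give no version. No source used here writes the log base, and it was read from the range of the values (2.39 to 14.8). RMA forces the arrays to nearly one distribution and pulls differences of dim probe sets toward 0. Detection calls were not made.

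Of 45101 rows, 64 array control probe sets were left out and no filter on level was applied. Probe sets were named from the platform annotation, updated through Entrez identifiers to the RefSeq table of GRCm38.p6: 34945 had 1 symbol, 932 several and 9160 none, and 34741 matched the table. The pathway and marker lists use, for each gene, the probe set with the highest mean. Xylt1, Ndst1, Hs3st5 and Sdccag3 of the pathway lists were not analysed here.

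Knockout minus control was estimated by limma 3.58.1 under R 4.3.3 (two-sided, no covariates, moderated by eBayes), Benjamini-Hochberg adjusted over 45037 probe sets with a threshold of 0.05. The fit was tested on simulated data. The family and the lists were chosen with earlier results of these data known. Named genes are all probe sets of the family, Fzd6, the 3 genes of each pathway list with the smallest p, the genes between Sdc2 and Fzd6 whose groups do not overlap, and the 5 nearest profiles. Sys1, Pigt and the profiles near Sdc4 were chosen after their values were seen.

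The titles number the arrays 1 to 3 in both groups. After removing group means, same-numbered arrays had correlations of 0.568, 0.359 and 0.124, each over 0.1, so the numbers were treated as pairs, on this basis alone. Control 2 correlated more with knockout 3 (0.422), and both of these arrays were low in the Y-linked genes. The pairs numbered 2 and 3 thus each joined an array low in these genes to a high array. Alternatives were the replicate block, a variance trend, a level filter, further normalisation, array weights, covariates and each array left out. Figures were drawn with matplotlib 3.10.9.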

Additional observations from a re-analysis of the deposited data

How the results depend on the processing

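With the replicate block the Sdc2 lead probe set was at −1.08 (limma adjusted p = 0.0453), 1 of 3 probe sets under the threshold over all features. As this probe set chose the family, and the block rests only on the correlations given above, this carries no test. The block changed no other call among the results tested. Under the other alternatives the lead difference stayed between −1.13 and −0.99, with limma adjusted p between 0.0753 and 0.995, and 0 probe sets were called over all features. In the fit without covariates 0 were called at an adjusted p of 0.1 as well, and 2348 had an unadjusted p under 0.05. The count of family probe sets with groups apart was 5 to 11 when arrays were left out, where the share over all probe sets was not computed. Counting only the brightest probe set of each gene it was 1 of 10, against 11.3% of all genes. For Sdc2 the brightest was a near tie with the lead probe set, whose groups were apart. Genes of the pathway lists called were 0 under every fit run, and 4 at an unadjusted p under 0.05. The family's median difference ran from −0.14 to −0.027 when arrays were left out. Of the 23 other family probe sets, 9 kept the sign of their difference in every alternative run for them, those of Sdc2 and Gpc3 among them, and without knockout 1 there were 7 with the other sign. With 3 arrays a group and no detection calls, the values of Gpc5 and the dim Sdc2 probe set are near the floor.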
